A study of Mus musculus with 2 samples.

Results

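The genes described are those of metallothionein, ferritin, hepcidin and the transport of iron in mouse liver. They were taken from a list of 10 gene symbols grouped by role. A gene was represented on the array when a probe set carried its symbol and no other, and 8 of the 10 were, among 12393 genes represented in all: Mt1, Mt2, Fth1, Hamp, Slc40a1, Cp, Tfrc and Scara5. The probe sets that carry Trf (1 probe set) and Ftl1 (3 probe sets) also carry other symbols, so no value is given for either gene. The livers came from male mice lacking apolipoprotein E on a C57BL/6J/OLA129 background, with an age of 2 months in the labels. The control pool came from mice on chow with a 1% glycerol drink. The squalene pool came from mice of the same genotype, strain, sex and labelled age on chow with a glycerol drink that added squalene at a dose of 1 g per kg per day. Both regimens ran for 10 weeks, and each pool was read on 1 array. Both groups are pools and both lack apolipoprotein E, so no animal-to-animal spread and no response in wild-type liver can be read from them. How many mice each pool holds is not stated.

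Metallothioneins are small cysteine-rich proteins that bind zinc and copper, and their genes are switched on by the zinc sensor MTF1, by glucocorticoids and in the acute phase response. Iron is stored in the cell inside ferritin, a shell of heavy and light chains, and leaves through ferroportin, the product of Slc40a1. Hepcidin, the liver hormone encoded by Hamp, makes cells take ferroportin off their surface, and the liver raises it when iron stores are full. Iron-poor cells stabilise the mRNA of the transferrin receptor Tfrc and hold back translation of ferritin through the iron regulatory proteins, so that ferritin mRNA level is a poor guide to ferritin protein.

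The promoter sequences of the metallothionein pair and of hepcidin are shown because metal response elements and the BMP and STAT elements are the textbook control sites of these genes. Each line gives the 250 bases before the RefSeq start site in build GRCm38.p6, from 5′ to 3′ on the gene's strand. In the metallothionein promoters capitals mark the cores of metal response elements, TGCACNC or TGCGCNC on either strand. In the Hamp promoter capitals mark GGCGCC, the core of BMP-responsive elements, and TTCNNNGAA, the STAT element.
Mt1, chr8:94178839-94179088, plus strand: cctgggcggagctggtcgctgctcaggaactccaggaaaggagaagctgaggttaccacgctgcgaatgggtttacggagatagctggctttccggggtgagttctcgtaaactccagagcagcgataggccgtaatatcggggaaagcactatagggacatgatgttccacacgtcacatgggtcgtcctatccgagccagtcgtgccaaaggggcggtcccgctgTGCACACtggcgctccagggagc
Mt2, chr8:94172368-94172617, plus strand: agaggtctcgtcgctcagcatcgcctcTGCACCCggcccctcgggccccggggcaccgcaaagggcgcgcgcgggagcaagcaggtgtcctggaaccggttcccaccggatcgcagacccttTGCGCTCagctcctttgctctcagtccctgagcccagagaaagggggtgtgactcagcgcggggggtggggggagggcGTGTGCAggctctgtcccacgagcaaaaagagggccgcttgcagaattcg
Hamp, chr7:30944030-30944279, minus strand: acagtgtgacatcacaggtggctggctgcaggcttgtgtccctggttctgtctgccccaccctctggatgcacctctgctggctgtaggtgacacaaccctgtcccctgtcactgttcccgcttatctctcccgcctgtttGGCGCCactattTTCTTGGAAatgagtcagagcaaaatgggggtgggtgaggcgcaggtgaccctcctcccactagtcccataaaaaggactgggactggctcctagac
The window searched ran 50 bases further, past the start site, and was 300 bases long. The Mt2 window held 4 metal response cores, 3 before the start site and 1 after it, and the Mt1 window held 3, of which 1 lay before the start site and 2 after it. These places are relative to the RefSeq start site, and whether liver RNA starts there was not tested. Cores beyond the window were not counted, so the counts do not rank the promoters. Of 32851 promoter windows of that length in the RefSeq table, 25.7% held at least 1 such core, 1.97% held 3 or more and 0.517% held 4 or more. The Mt2 window also held 1 match to TGACNNNGC, the antioxidant element, found in 12.4% of windows. The Hamp window held 1 GGCGCC, which 11.9% of windows held, and 1 TTCNNNGAA, which 8.3% held. The first of the Tfrc windows held 2 overlapping TGCGCNC matches and 1 GGCGCC, and neither window of Fth1 or Cp held any of these motifs. The table gave windows for 6 of the 8 genes, and a match of letters is a description and not a site shown to be used. In RefSeq order Mt2 lies next to Mt1, and Mt3 and Mt4 lie on the far side of Mt2.

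The comparison asks how the transcripts of these genes differ in the liver pool given squalene. MAS5 signals, 1 value per probe set on a linear scale, were compared as deposited, and the log2 ratio is squalene over control. The brightest probe set stands for its gene. A gene was called measured when that probe set reached the array median, 39.9 in control and 41.35 in squalene liver, in at least 1 pool. All 8 genes were at or above it in both pools, beside 6459 of 12393 genes on the array. With 1 array per group no test can be made, and the spread available is how far probe sets of 1 gene differ. Their log2 ratios had an SD of 0.80 in the dimmest tertile of signal, 0.42 in the middle and 0.27 in the brightest. Each of the 18 hybridization spike-in probe sets read lower on the squalene array (median log2 ratio -0.26). Scaling to them adds 0.26 to the ratio of every gene, so directions smaller than that hold only relative to the bulk of the array. Apoe read 141.0 in control and 130.6 in squalene liver on a probe set that may lie outside the deleted part, so it checks nothing.

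None of the 8 genes passed the submitters' limit, a log2 ratio of 1.5 in either direction, which 2.26% of 7330 measured genes and 0.124% of 6459 genes well read in both pools passed. Scaled to the spike-ins Scara5 passed it (1.59), and so did Mt1 (2.30) when its probe sets were averaged, through a dim second probe set. Past a smaller band of 0.5, 3 of the 8 were higher in the squalene pool (Scara5, Tfrc and Mt2), 0 were lower and 5 lay between, where 11.3% of measured genes were higher past the band and 10.4% lower. Among the 6459 genes at or above the median in both pools, as all 8 were, the shares were 7.85% higher and 6.35% lower. The median log2 ratio of the 8 was 0.16 and that of all measured genes was 0.01. Hamp, Cp, Fth1 and Slc40a1 read nearly alike in both pools, and the largest ratios belonged to Scara5 and Tfrc.

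**Figure D1:**
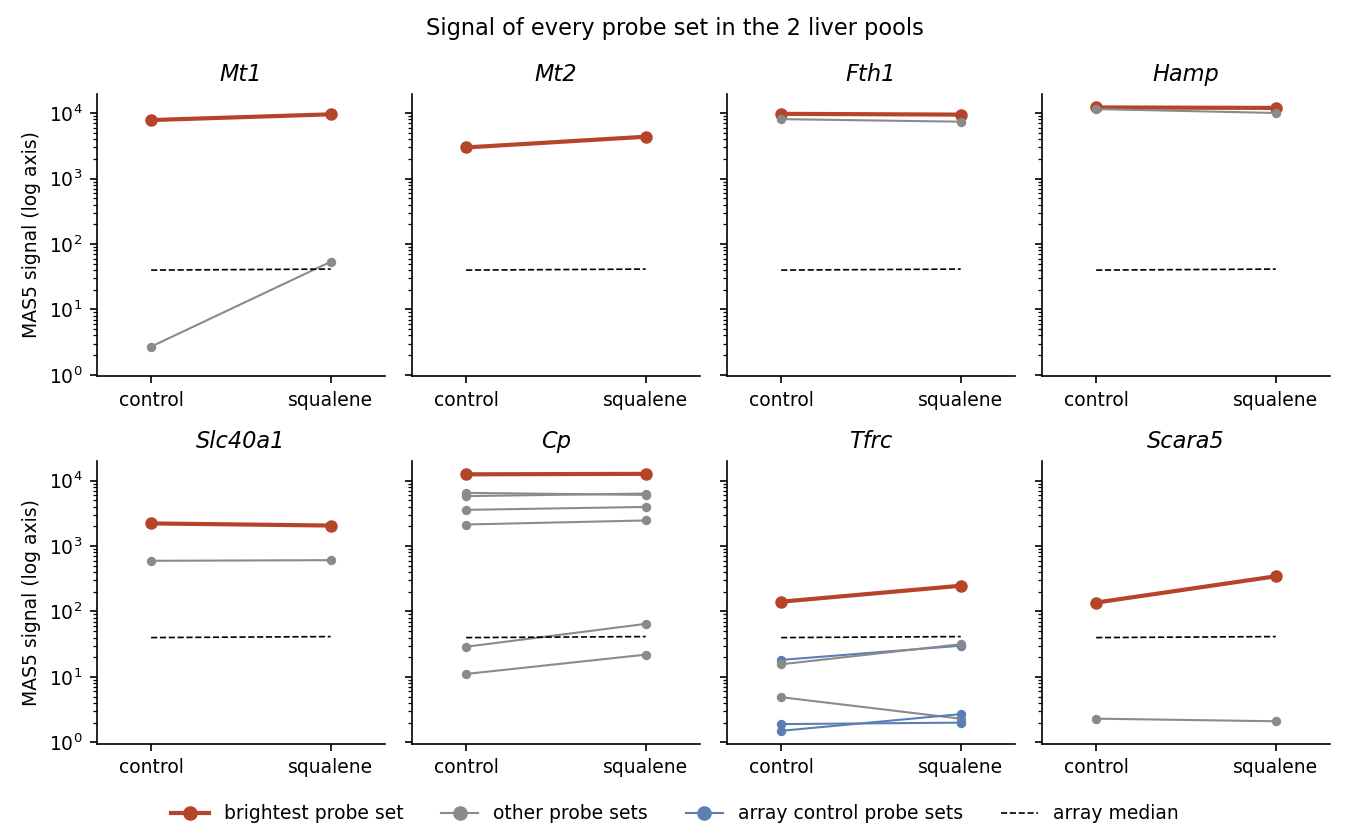
MAS5 signal (log axis) of each probe set in the control and squalene pools, 1 panel per gene, with 1 array per pool and no error bars. The red line is the brightest probe set, grey lines are the others, blue lines are array control probe sets for Tfrc, and the dashed line is the array median (39.9 and 41.35). The red lines of Scara5, Tfrc and Mt2 climb, while those of Hamp, Fth1 and Slc40a1 are nearly flat.

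Mt1, the metallothionein gene expressed in most tissues, read 7837.3 in control and 9598.6 in squalene liver, a log2 ratio of 0.29. The squalene pool was thus 1.22-fold higher, by an amount close to the 0.27 SD between probe sets at that brightness. In the tertile of brightest genes, 10.7% of 2444 had a ratio at or above that of Mt1. A second Mt1 probe set read 2.7 in control and 53.5 in squalene liver, a log2 ratio of 4.31. Its control signal lay far below the array median. With both signals raised to at least the array median its log2 ratio was 0.42.

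Mt2, the other metallothionein gene of liver, read 2990.9 in control and 4361.8 in squalene liver, 1.46-fold higher (log2 ratio 0.54). It has 1 probe set, so no other reading on these arrays checks it. Of the 2444 brightest genes, 2.54% had a ratio at or above it, and it lay only just past the band of 0.5. The ratios of Mt2 and Mt1 differed by 0.25, which is less than the SD between probe sets of 1 gene in that tertile. The brighter Mt1 probe set carries the suffix _s_at, used for probes that can match more than 1 transcript, so signal from Mt1 and a like sequence cannot be told apart on it. Mt3 (30.9 in control and 3.3 in squalene liver) and Mt4 (30.1 and 2.8), metallothionein genes of brain and of squamous epithelium, lay below the array median in both pools and give no usable ratio.

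Scara5, a scavenger receptor that takes up ferritin, had the largest ratio of the 8. It read 136.8 in control and 345.4 in squalene liver, 2.52-fold higher (log2 ratio 1.34). That is beyond 3 times the SD of 0.42 between probe sets in the middle tertile of signal, where it ranked 6 from the top among 2443 genes. This SD holds no spread between arrays or animals, so the multiple does not measure significance. A second Scara5 probe set read 2.3 and 2.1, near the floor of both arrays, so the difference rests on 1 probe set. Scara5 is known mainly from stromal cells. Of 8 measured markers of stellate cells and fibroblasts, 0 were higher past the band and 4 lower. Among all genes well read in both pools, as these 8 were, 7.85% were higher and 6.35% lower. The median log2 ratio of the 8 markers was -0.39. It was 0.01 over those with a plain-suffix probe set or past the 75th percentile of signal. The summed signal of all 11 on the array was 4362.6 in control and 4068.8 in squalene liver. Lum (163.1 and 88.5, log2 ratio -0.88), Col1a2 (-0.71) and Pdgfrb (-0.70) were among the lower ones. Col1a2 and Pdgfrb lay in the dimmest tertile, where the SD between probe sets was 0.80. The brighter Dcn (2540.5 and 2415.0, -0.07), Reln (0.02), Ecm1 (0.06) and Rgs5 (0.01) read nearly alike in both pools. Lrat, Des and Col1a1 lay below the array median in both pools. The part of all these markers in the Scara5 reading was not tested. In bulk liver RNA, more cells of a type and more RNA per cell cannot be told apart.

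Tfrc, the receptor that imports transferrin-bound iron, read 141.2 in control and 247.6 in squalene liver, 1.75-fold higher with a log2 ratio of 0.81. In the middle tertile of signal, 2.25% of 2443 genes had a ratio at or above it. The 5 other Tfrc probe sets, 3 of them array controls placed along the transcript, lay below the array median in both pools. Their ratios ran from -1.09 (4.9 in control and 2.3 in squalene liver) to 1.02 (15.6 and 31.6), and 4 of the 5 lay above 0. Since all 5 were dim, the Tfrc difference also rests on 1 probe set. Red cell precursors also carry much Tfrc. Of 10 listed erythroid markers 4 were on the array, with a summed signal of 137.9 in control and 130.8 in squalene liver. Of these Alas2 was measured, at 102.6 and 73.9, and Hba-a1, Slc4a1 and Epb42 lay below the array median in both pools. The part of such cells in the Tfrc reading was not tested.

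**Figure D2:**
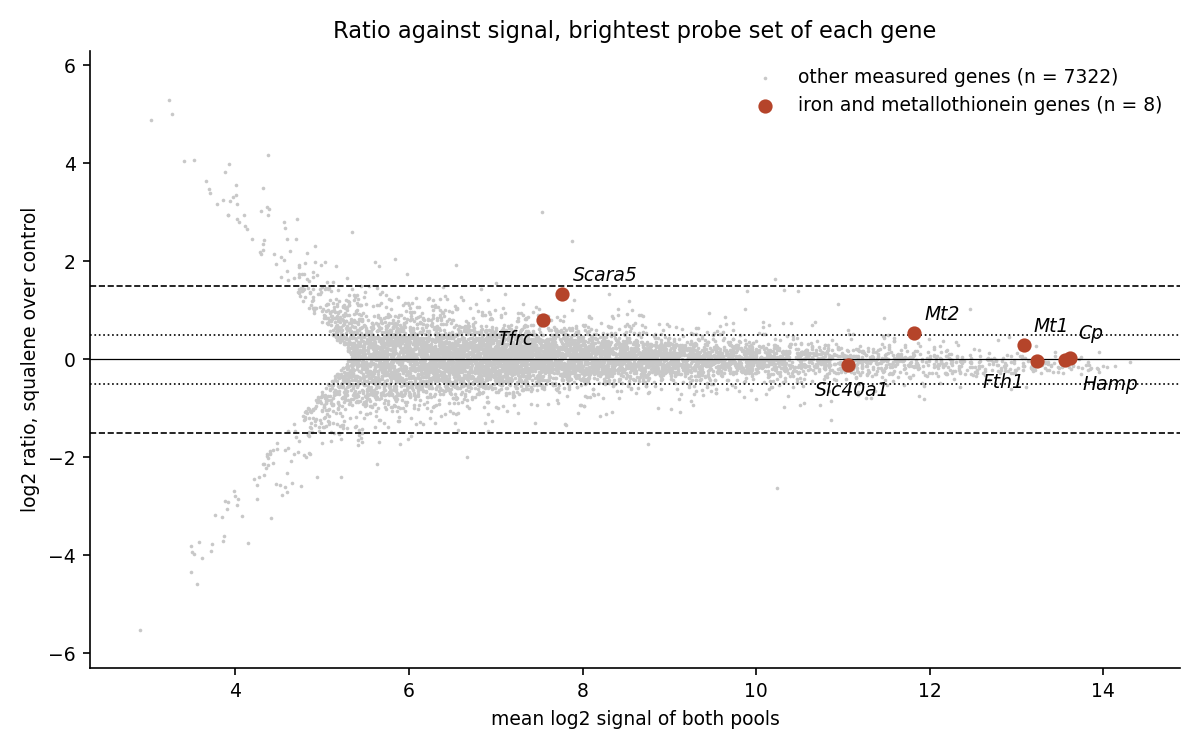
Log2 ratio of squalene over control against the mean log2 signal of both pools, 1 point per measured gene (brightest probe set). The 8 genes are red and the 7322 others grey, dashed lines mark a log2 ratio of 1.5 and dotted lines 0.5 in either direction. Scara5 (1.34) and Tfrc (0.81) lie at the upper edge of the cloud at medium signal, and Hamp, Cp, Fth1 and Slc40a1 lie near 0 at high signal.

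Hamp, the hepcidin gene, was nearly alike in both pools. Its brighter probe set read 12223.1 in control and 12027.9 in squalene liver, a log2 ratio of -0.02, and 92.1% of the brightest genes lay further from 0. The second probe set read 11541.0 and 10058.9 (log2 ratio -0.20). Mice carry a near-identical Hamp2 gene next to Hamp, and its share of either signal is uncertain, the more so on the second probe set, whose suffix _x_at marks probes that can cross-match.

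Fth1, the heavy chain of ferritin, which oxidises iron as it is stored, read 9755.5 in control and 9496.0 in squalene liver, a log2 ratio of -0.04. A second probe set read 8098.1 and 7403.7 (-0.13). Both readings lay slightly below 0 and within the SD of 0.27. Scaling to the spike-ins would put both above 0.

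Slc40a1, the gene of the iron exporter ferroportin, read 2218.8 in control and 2059.6 in squalene liver (log2 ratio -0.11), and its other probe set read 595.3 and 609.0 (0.03). The sign differed between the probe sets, so no direction can be given. In liver, ferroportin is made by hepatocytes and strongly by Kupffer cells, the resident macrophages that recycle iron from red cells. Kupffer cell and macrophage markers were lower in the squalene pool. Of 15 listed, 14 were on the array and 12 measured, all 12 below 0 and 9 past the band. Their median log2 ratio was -0.68. Marco (80.3 and 38.6) and Hmox1 (57.6 and 38.3) were measured only through the control pool, so their ratios below 0 follow from that filter. The 10 markers well read in both pools also had a median of -0.68. Past the band, 10.4% of all measured genes were lower, and 6.35% of genes well read in both pools. The summed signal of all 14 markers was 6638.7 in control and 4307.2 in squalene liver, and Cd163 and Spic were below the array median in both. Msr1 (-1.33), Lyz2 (-1.07) and Clec4f (714.6 and 438.8, -0.70) had the largest differences among the well-read markers. Msr1 (113.0 and 45.1) lay in the dimmest tertile, where the SD between probe sets was 0.80. Its other probe sets, below the array median in squalene liver, ran from -2.81 to -0.51. The part of these markers in the Slc40a1 reading was not tested.

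Cp, the plasma ferroxidase ceruloplasmin, which carries copper and oxidises iron leaving the cell, had 7 probe sets. The brightest read 12488.9 in control and 12703.0 in squalene liver, a log2 ratio of 0.02. The 5 probe sets that reached the array median in both pools had ratios from -0.11 to 0.21, with a mean of 0.08 ± 0.12 (SD over 5 probe sets of 1 gene, which share the same RNA). Of these, 4 lay above 0 and 1 below, all close to it. The remaining 2 probe sets were dim in the control and read 28.9 and 64.7 (1.16) and 11.1 and 21.9 (0.98). Each of the 10 hepatocyte markers lay within the band, with a median log2 ratio of -0.16.

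Few markers of the other cell types a liver sample can hold were measured, apart from endothelium. Of 9 measured markers of sinusoidal endothelium, the main source of the hepcidin-inducing ligand Bmp6, 1 was higher and 2 were lower past the band. Their median log2 ratio was -0.07. Among all measured genes 11.3% were higher and 10.4% lower past the band. Bmp6, counted among the lower markers, was below the array median in squalene liver. Clec4g read 864.9 in control and 522.2 in squalene liver (-0.73), with its other probe set below the array median in both pools, and Stab1 was at 0.53. Of 3 measured neutrophil markers 2 were lower past the band and 1 higher, from -1.10 for S100a9 to 0.95 for Ngp, with a median of -0.50. S100a9 was dim in the squalene pool and Ngp in the control pool, so only S100a8 (-0.50) was well read in both. S100a8 lay in the dimmest tertile, and its ratio was smaller than the 0.80 SD there. The 3 lymphocyte markers read 0.71 (Ighm), -0.27 (Ptprc) and -3.98 (Klrk1, dim in the squalene pool). Their median of -0.27 became 0.22 over the pair well read in both pools. Ighm has 11 probe sets, and the others ran from -3.02 (54.2 and 6.7) to 3.35 (1.8 and 18.3). Another read 53.6 and 13.3 (-2.01), so no direction is read from Ighm. Markers of exocrine pancreas had a median of -0.33 over 2 genes. Of the adipocyte markers only Fabp4 was measured (-0.17), and 0 of 5 cholangiocyte markers on the array were.

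Of the other genes of iron transport and storage, 18 were on the array and 11 were measured. Past the band 2 were higher and 0 lower, with a median log2 ratio of 0.24. Among all genes well read in both pools, as these 11 were, 7.85% were higher and 6.35% lower. Ncoa4, the receptor that delivers ferritin to the lysosome for iron release, read 1259.8 in control and 2050.2 in squalene liver, 1.63-fold higher, and the log2 ratio was 0.70 on both of its probe sets. Slc25a37, the mitochondrial iron importer mitoferrin-1, read 81.5 and 121.3 (0.57) and its relative Slc25a28 read 166.4 and 220.0 (0.40). Slc39a8, a zinc and iron importer, was at -0.42, while Slc39a14, the main hepatic importer of iron not bound to transferrin, was at 0.38 on both probe sets. Steap3, the endosomal iron reductase, was below the array median in both pools on all of its probe sets and gives no usable ratio.

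Genes that control hepcidin went both ways. Of 21 on the array, 18 were measured, with 2 higher and 4 lower past the band and a median of -0.03. Among all measured genes 11.3% were higher and 10.4% lower past the band. Il6ra, the interleukin-6 receptor, read 121.7 in control and 254.2 in squalene liver (log2 ratio 1.06, and 0.42 on its other probe set), and Acvr1, a BMP type I receptor, was at 0.55. Id1, a target of BMP signalling, read 114.5 and 50.1, a log2 ratio of -1.19, in the dimmest tertile (SD 0.80). The other 3 lower genes had squalene signals below the array median, and these were Smad6 (70.6 and 26.0, -1.44), an inhibitor induced by BMP signals, the BMP co-receptor gene Neo1 (46.6 and 19.5, -1.26) and the ligand Bmp6 (68.1 and 41.0, -0.73). The iron sensor Tfr2 read 4819.4 and 4842.3, a log2 ratio of 0.01, beside a Hamp ratio of -0.02.

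The 9 measured genes of the iron regulatory proteins and the oxygen sensors all lay within the band, with a median of -0.07. Aco1, which becomes the regulatory protein IRP1 when it loses its iron-sulfur cluster, read 1830.1 and 2122.8 (0.21), and Ireb2, which encodes IRP2, 321.5 and 306.1 (-0.07). The oxygen sensors Egln3 (-0.45) and Egln2 (-0.34) and the factors Epas1 (0.36) and Hif1a (0.28) had the largest ratios. The 13 measured genes of iron-sulfur cluster assembly also lay within the band, from -0.23 for Nubp1 to 0.33 for Ciapin1, with a median of -0.02. Other well-read probe sets gave the opposite sign for Nubp1 (0.36), Ciapin1 (-0.11) and Nfu1 (0.29 and -0.08), and Ciao1 was at -0.17. Both groups of genes reached the array median in both pools without exception. Among all such genes 14.2% passed the band, and among all measured genes 21.7%.

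All 8 measured genes that handle heme and haemoglobin lay below 0, with a median of -0.12, or 0.14 after scaling to the spike-ins. Of all 7330 measured genes, 3713 lay above 0. Past the band 2 of the 8 were lower and 0 higher, where 10.4% of all measured genes were lower. The other 6 lay within the band. Blvrb, a biliverdin reductase, read 1405.7 in control and 918.4 in squalene liver (-0.61). Hmox1, the inducible heme oxygenase, read 57.6 and 38.3 (-0.59), below the median in the squalene pool, and it is also among the Kupffer cell markers. Lrp1 (-0.25), Hpx (-0.13) and Hmox2 (-0.11) differed less.

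**Figure D3:**
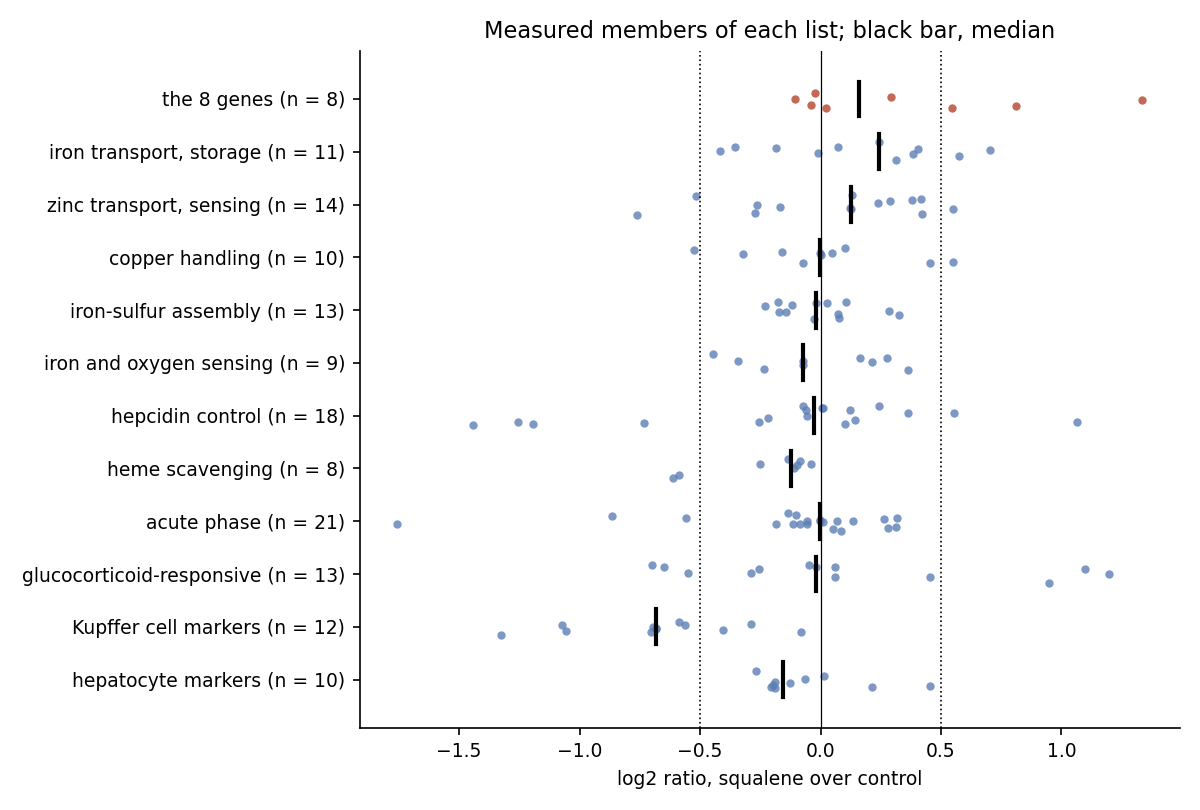
Log2 ratio of squalene over control for each measured gene of the lists, 1 point per gene (vertical scatter within a row has no meaning), with the median as a black bar and dotted lines at 0.5 in either direction. The 8 genes are red. Kupffer cell markers lie below 0 throughout (median -0.68), iron-sulfur and iron sensing genes lie within the band, and the glucocorticoid-responsive row spreads to both sides.

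Zinc transporters and the zinc sensor had a median of 0.13 over 14 measured genes, with 1 higher and 2 lower past the band. Among all genes well read in both pools, as these 14 were, 7.85% were higher and 6.35% lower. Mtf1, the factor that binds metal response elements, read 85.5 in control and 125.2 in squalene liver (0.55), but -0.17 on its other probe set. Slc30a1, the plasma membrane zinc exporter and itself a target of MTF1, read 84.2 and 49.7 (-0.76) on its only probe set. Slc30a1 fell in the dimmest tertile, and its ratio was smaller than the 0.80 SD there, so no direction is read from it. Whether MTF1 activity differed between the pools was not tested. Slc30a7, also in the dimmest tertile, was at -0.51 and the importer Slc39a4 at 0.42. Of 10 measured copper genes, 1 was higher and 1 lower past the band, with a median of 0.00. Among all measured genes 11.3% were higher and 10.4% lower. The higher copper gene was Atp7b (35.0 and 51.2, 0.55), with -0.13 on its dimmer probe set. It was measured only through the squalene pool, so it gives no usable direction. Cox17, the copper chaperone of cytochrome oxidase, read 1014.2 and 704.2 (-0.53), and its other probe set was at the floor of both arrays (1.8 and 8.4). Sco2 (-0.32), Slc31a2 (0.45) and Atox1 (-0.16) lay within the band.

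Hepcidin, ceruloplasmin and the metallothioneins are also acute phase genes. The other acute phase genes showed no common direction: of 21 measured, 0 were higher and 3 lower past the band, with a median of 0.00. Saa3, a serum amyloid made in part by macrophages, read 724.8 and 492.6 (-0.56), Socs3, a feedback inhibitor of interleukin-6 signalling, 161.3 and 88.5 (-0.87), and Cd14, at -1.76, lay under the array median in squalene liver. Saa4 (0.32, and 0.41 on its other probe set) and Steap4 (0.31, and -0.05 on the other) were the highest. Glucocorticoid-responsive genes held 3 higher and 3 lower of 13 measured, with a median of -0.02. For both lists, the shares among all measured genes were 11.3% higher and 10.4% lower past the band. Tsc22d3, which encodes the glucocorticoid-induced leucine zipper, read 244.7 in control and 561.7 in squalene liver (log2 ratio 1.20, and 0.57 and 0.66 on its other probe sets). Fkbp5, a chaperone of the glucocorticoid receptor, read 504.5 and 973.5 (0.95, and 0.82 on the other), and Zbtb16 54.0 and 115.7 (1.10). Zbtb16 lay in the dimmest tertile, where the SD between probe sets was 0.80. The 3 lower genes were Igfbp1 (3306.7 and 2106.6, -0.65), Dusp1 (515.1 and 351.5, -0.55) and Per1 (59.9 and 36.9, -0.70). Per1 was below the array median in squalene liver and was measured only through the control pool. The lists share genes such as Hp, Hpx, Lcn2 and Steap4, and the part of any of them in the metallothionein readings was not tested.

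**Figure D4:**
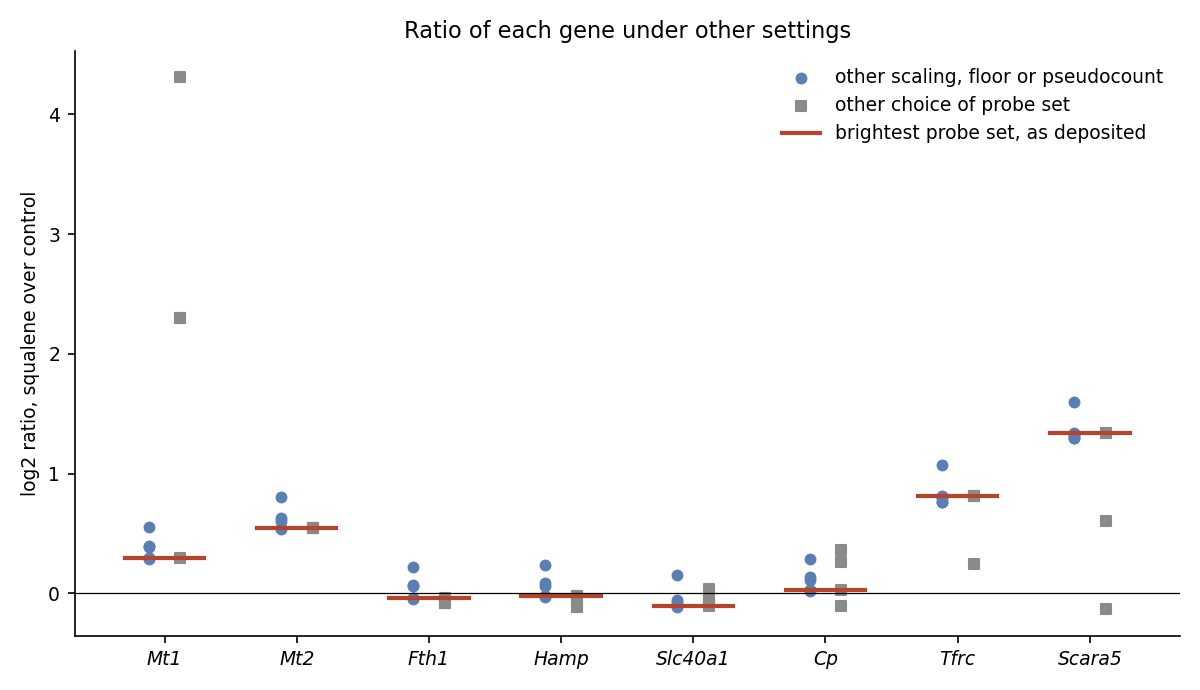
Log2 ratio of squalene over control for each of the 8 genes, with the value as deposited for the brightest probe set as a red bar. Blue circles are other scalings, a floor and a pseudocount, and grey squares are other choices of probe set. Only the choice of probe set moves Mt1 (up to 4.31) and Scara5 (down to -0.13) far from the bar. Mt2 stays between 0.54 and 0.80, but it has 1 probe set, so the choice of probe set cannot move it.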

How the data were processed

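Hepatic total RNA of a control and a squalene pool was labelled with biotin and hybridised to Affymetrix mouse arrays, per the labels' protocols. The authors ran MAS5, per the submitters' processing notes, and deposited 1 intensity per probe set, not logged. Which software version, scaling target and genome build they used is not stated in those notes. Each array held 22690 probe sets, with 64 array controls left out of gene counts. Names came from the platform annotation, with 1 symbol for 20380 probe sets, 20351 of them matched to RefSeq by Entrez number. Each gene was read on its brightest probe set by mean log2 signal, and the log2 ratio was taken without a pseudocount. The SD between probe sets was pooled over genes with 2 or more measured probe sets.

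The members, the 9 context lists, the 10 cell marker lists and the alternatives were chosen with earlier results of these data known. From each context list up to 4 genes, and from each marker list up to 3, were marked for naming. These had the largest ratios, with neither signal under the array median. Not all of them are described: Bmpr1a, Stab2, Cela1 and the hepatocyte markers Tat, Serpina1c and Fah were left out. Further names were added for their role or count after their values were seen. Examples are Hmox1, Bmp6, Smad6, Neo1, Cd14, Tfr2, Ireb2, Aco1, Slc39a14, Steap3, Marco, Atp7b, Per1 and Dusp1. Promoters came from RefSeq. Alternatives were other scalings (quantile and cyclic loess, limma 3.58.1, R 4.3.3), flooring, a pseudocount of 3.0, other filters, limits and probe set choices. Other steps used Python 3.11.15, pandas 2.3.3 and matplotlib 3.10.9 and were tested on simulated data.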

Additional observations from a re-analysis of the deposited data

How the results depend on the processing

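With 1 array per pool every value lacks a replicate, and a change of setting was judged against the SD between probe sets of 1 gene. No paired analysis was possible because each group has 1 pool. Of 79 recomputed ratios of the 8 genes, 72 moved by less than that SD and 7 by more or to the other side of 0 from past the band. Part of the 72 was fixed in advance: flooring at the array median changes none of the 8, and Mt2 has 1 probe set. Centring on the median of all measured genes shifts every ratio by only 0.01. The spike-in shift of 0.26 is the same for every gene and under the smallest SD. The sign changed in 10 of the 79: in 3 for Hamp, 3 for Fth1, 2 for Slc40a1 and 1 for Cp, all close to 0, and in 1 for Scara5, at -0.13 on the probe set with the smallest ratio, which is near the floor of both arrays, and at 0.60 as the mean of its probe sets. The number of genes past the limit, 0 as reported, was 1 after centring on the spike-ins (Scara5, 1.59) and with a limit of 1.0. It was also 1 with the mean of all probe sets, with plain-suffix probe sets only, and with the mean of measured probe sets, a setting chosen after seeing the data; in these Mt1 stood at 2.30, 4.31 and 2.30, through its dim second probe set. The median of the 8 genes was 0.54 over the 7 with a plain-suffix probe set and between 0.03 and 0.42 in the other settings, all above 0. As the mean of all probe sets, array controls left out, Tfrc was at 0.25 and Cp at 0.36. Centring on the spike-ins put all 8 genes above 0, with all measured genes at a median of 0.26, and 67.8% in place of 49.4% of genes past the limit were then higher. Of all measured genes 166 passed the limit, which became 1879 with no filter and 8 where neither signal was under the median. The count of genes higher past the band ran from 2 to 4, and none was lower. Each of 117 recomputed medians of the 9 context lists moved by less than 0.27, a bound that the fixed spike-in shift of 0.26 could not pass. Of 111 recomputed medians of cell marker lists, added after seeing the data, 14 moved by more, 4 of them of stellate markers, and the Kupffer cell median ran from -0.70 to -0.42.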
